A study of Homo sapiens with 8 samples.

Results

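The genes described here are the 10 members of the insulin-like growth factor (IGF) axis: the ligand IGF2, the binding proteins IGFBP1 to IGFBP6, and the receptors IGF1R, IGF2R and INSR. They were chosen by family and by their gene-level CPM (counts per 1000000 counts of a library) in these libraries, namely vehicle at 24 h against 12 h and benzo[a]pyrene against vehicle at each time. Their gene-level differences are therefore given as a description with no p, and the count of members past the threshold used for all genes supports nothing. The 10 genes were found among 49733 gene IDs in the files, and 9 of them passed the filter on low counts that kept 14746 genes. IGFBP5 did not pass, with 1 count in replicate 1 of vehicle 12 h, 1 count in replicate 2 of vehicle 24 h and 0 in the other libraries.

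IGFs are small secreted hormones that act through the tyrosine kinase receptor IGF1R, and the insulin receptor INSR also takes up IGF2 signals, chiefly in its isoform without exon 11. IGF2R, the cation-independent mannose 6-phosphate receptor, binds IGF2 at the cell surface and carries it to lysosomes for breakdown. The binding proteins hold IGFs in the circulation and tissue and limit or present them to receptors. In liver, IGFBP1 is the member that insulin represses and that fasting, amino acid lack and stress raise, while IGF2 is a fetal ligand that is often re-expressed in liver tumours.

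Poly-A RNA came from HepG2, an established human liver tumour line, grown as a monolayer. At 80% confluence the cells received fresh medium with 2 µM benzo[a]pyrene (BaP) or with the vehicle, 0.5% DMSO, and were collected after 12 h or 24 h. BaP, a combustion product, is a ligand of the aryl hydrocarbon receptor (AHR), and its metabolites form DNA adducts. Each of the 4 groups (vehicle 12 h, BaP 12 h, vehicle 24 h and BaP 24 h) held 2 libraries from independent experiments, all of 1 cell line, and the medium contained fetal bovine serum throughout.

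Total estimated counts per library ran from 2592272 in replicate 1 of BaP 24 h, the shallowest, to 16533490 in replicate 2 of that group. The exposure was visible in the AHR target CYP1A1, at 1.5 to 6.57 CPM in the 4 vehicle libraries and at 306 to 1060 CPM in the 4 BaP libraries. All 9 hepatocyte markers were detected in every library, with a summed level of 19205 to 33815 CPM. The stromal markers LUM and DCN, the endothelial marker KDR and the leukocyte markers CD163 and CD3E were at 0 in all 8 libraries. The other marker lists were low in sum but not alike between the groups. The 5 leukocyte markers summed to 38.4 to 42.4 CPM with vehicle and 45.6 to 49.4 CPM with BaP at 12 h, and to 38.6 to 39.4 CPM against 58.9 to 61.6 CPM at 24 h. The 6 stromal markers summed to 35.3 to 59.9 CPM with vehicle and 20.0 to 28.9 CPM with BaP at 12 h, and to 39.6 to 57.2 CPM against 25.8 to 31.5 CPM at 24 h. The 3 endothelial markers that matched an ID summed to 0.699 to 1.33 CPM with vehicle and 0.465 to 0.693 CPM with BaP at 12 h, and to 2.21 to 3.19 CPM against 0.375 to 1.07 CPM at 24 h. The leukocyte sum was thus higher with BaP and the stromal sum was lower, at both times. The endothelial sums were lower too but rest on few reads, as 3 counts are 0.201 to 1.13 CPM depending on the library. At 12 h their nearest values were 0.699 and 0.693 CPM. The part of these marker sums in the results below was not tested. In bulk RNA, fewer cells that express a gene and less of its RNA per cell cannot be told apart.

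The promoters of 3 members are printed because these genes differed in opposite ways: IGFBP3 was higher in both comparisons of BaP with vehicle, IGFBP4 was higher chiefly at 24 h, and IGF1R was lower at 12 h. Each window holds 250 bases before and 50 after the RefSeq start, in GRCh38.p14, written 5′ to 3′ on the gene's strand. Capitals mark GCGTG on either strand (CACGC on the printed one), the core that AHR and its partner ARNT bind, and TATAAA.
IGFBP3 (chr7:45921223-45921522, minus strand): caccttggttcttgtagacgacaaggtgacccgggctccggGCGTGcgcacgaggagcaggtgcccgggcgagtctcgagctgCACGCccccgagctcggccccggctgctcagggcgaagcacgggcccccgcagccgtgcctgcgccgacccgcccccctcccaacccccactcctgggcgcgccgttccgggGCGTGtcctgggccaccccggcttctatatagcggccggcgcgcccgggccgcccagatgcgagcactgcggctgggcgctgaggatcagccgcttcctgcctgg
IGFBP4 (chr17:40443200-40443499, plus strand): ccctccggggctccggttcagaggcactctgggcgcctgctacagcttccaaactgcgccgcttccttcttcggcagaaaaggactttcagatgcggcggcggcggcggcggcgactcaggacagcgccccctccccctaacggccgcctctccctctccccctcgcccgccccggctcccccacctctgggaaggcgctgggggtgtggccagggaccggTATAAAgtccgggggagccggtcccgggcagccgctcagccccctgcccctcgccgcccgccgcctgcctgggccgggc
IGF1R (chr15:98648289-98648588, plus strand): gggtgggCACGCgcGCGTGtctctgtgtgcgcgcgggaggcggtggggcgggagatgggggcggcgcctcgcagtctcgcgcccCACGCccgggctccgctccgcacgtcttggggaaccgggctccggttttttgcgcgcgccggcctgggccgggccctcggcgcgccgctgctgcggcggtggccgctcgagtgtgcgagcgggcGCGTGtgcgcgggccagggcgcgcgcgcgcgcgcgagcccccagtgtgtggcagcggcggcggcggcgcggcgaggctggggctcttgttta

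GCGTG was present 3 times in the IGFBP3 window and 4 times in the IGF1R window, and it was absent from the IGFBP4 window. The gene that was higher with BaP and the gene that was lower at 12 h thus both carried the letters, which 36.5% of all 35116 promoter windows in the RefSeq table also held. Of the 3 IGFBP2 windows, 1 held GCGTG once, at position -132, and the windows of IGFBP5, IGFBP6, IGF2R and INSR did not hold it. TATAAA was found in 11.5% of windows, and of the members' 10 windows only that of IGFBP4 held it, at position -29 from the start. The FOXO site GTAAACA, held by 3.42% of windows, was found in the IGFBP6 window alone. The antioxidant response core TGACNNNGC (13.3% of windows) was in none of the members' 10 windows. Windows were matched for 8 of the 10 members, by symbol. IGFBP1 and IGF2 had no window, so their promoters were not searched. All motifs were searched on both strands, and a match describes letters only.

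One more sequence is shown because the transcripts of INSR differ by it. Exon 11 of INSR (chr19:7150497-7150532, minus strand, GRCh38, GENCODE 29) holds 36 bases and is in capitals here, with the neighbouring exon ends in lower case.
INSR exon 11: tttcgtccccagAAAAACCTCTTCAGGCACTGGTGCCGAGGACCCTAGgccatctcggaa
The transcript ENST00000302850, with 22 exons, contains this exon. In ENST00000341500, with 21 exons, the flanks are joined and the exon is skipped.

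The genes are spread over 8 chromosomes, and 2 pairs of binding proteins are neighbours in GENCODE 29. IGFBP1 (chr7:45888357-45893668, plus strand) and IGFBP3 (chr7:45912245-45921874, minus strand) face each other tail to tail, 18.6 kb apart. IGFBP2 and IGFBP5 lie tail to tail on chromosome 2, 7.67 kb apart. The first pair had like patterns over the groups, whereas in the second pair IGFBP2 was detected in every library and IGFBP5 hardly at all.

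The ligand IGF2 (ENSG00000167244) had the highest level per length of the 10 genes in 3 of the 4 groups and was lower with BaP at both times. Its level was 7798 and 6716 CPM in the vehicle 12 h libraries, replicates 1 and 2 in this order here and below, and 5189 and 4326 CPM with BaP. At 24 h it was 7906 and 6903 CPM with vehicle and 5316 and 5482 CPM with BaP. Every BaP library lay below every vehicle library. The fitted log2 difference between BaP and vehicle was -0.61 ± 0.17 (SE) at 12 h and -0.46 ± 0.17 at 24 h, while vehicle at 24 h differed from 12 h by 0.03 ± 0.17. The summed hepatocyte markers, which include albumin and alpha-fetoprotein, moved the same way: 25101 to 27385 CPM with vehicle and 19205 to 20517 CPM with BaP at 12 h, and 29569 to 33815 CPM against 21829 to 24315 CPM at 24 h. Whether a shift of hepatocyte transcripts in general has a part in the IGF2 values was not tested.

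Reads of IGF2 share positions with other annotated genes. The read-through gene INS-IGF2 was listed at 0 in all libraries, the antisense gene IGF2-AS held 1.07 to 19.4 counts per library, and AC132217.1, on the same strand, held 88.0 to 331 counts. These are small beside the 201820 counts of IGF2 summed over the vehicle 12 h libraries alone. The library kit is not stated to keep strand, so sense and antisense reads of the locus cannot be told apart.

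IGFBP1 (ENSG00000146678), the stress-responsive and insulin-repressed binding protein, spanned the widest range of the members above 5 CPM. Its libraries read 368 and 361 CPM in vehicle 12 h, 626 and 737 CPM in BaP 12 h, 1408 and 1852 CPM in vehicle 24 h, and 2618 and 2696 CPM in BaP 24 h. The 4 groups did not overlap and stood in that order. With vehicle alone the 24 h cultures exceeded the 12 h cultures by 2.16 ± 0.17 on the log2 scale, a 4.47-fold difference. BaP libraries exceeded vehicle by 0.90 ± 0.16 at 12 h and 0.71 ± 0.16 at 24 h, or 1.87-fold and 1.63-fold, so the difference with time in vehicle was larger than either difference with BaP. Nearly all of its reads (99.8%) were assigned to 1 transcript, ENST00000275525.

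IGFBP3 (ENSG00000146674), the main carrier of IGFs in serum and a p53 target, showed the same order of groups at a far lower level. Its libraries read 0.738 and 0.908 CPM in vehicle 12 h, 2.32 and 2.08 in BaP 12 h, 4.75 and 6.94 in vehicle 24 h, and 9.0 and 11.6 in BaP 24 h. No 2 groups overlapped. These values rest on few reads, 10 and 13 counts in vehicle 12 h and 24 in the shallow BaP 24 h library. The fitted log2 difference was 2.76 ± 0.33 between the vehicle times, 1.39 ± 0.37 with BaP at 12 h and 0.92 ± 0.26 with BaP at 24 h. With all libraries thinned to the shallowest total, the estimates were 3.54 between the vehicle times, 2.52 for BaP at 12 h and 0.91 for BaP at 24 h. Of these, only the difference between the vehicle times was then past the threshold used for all genes.

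IGFBP4 (ENSG00000141753), which blocks IGF action until the protease PAPPA cuts it, was the second most abundant binding protein. Vehicle 12 h held 219 and 170 CPM and BaP 12 h 266 and 247 CPM, while vehicle 24 h held 249 and 222 CPM and BaP 24 h 342 and 387 CPM. BaP libraries lay above vehicle libraries at both times. The log2 difference was 0.40 ± 0.14 at 12 h and 0.63 ± 0.14 at 24 h, and 0.28 ± 0.14 between the vehicle times. The replicates of vehicle 12 h moved the first and the last of these. Without replicate 1 they were 0.60, then past the threshold used for all genes, and 0.47. Without replicate 2 they were 0.21 and 0.08.

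The remaining binding proteins were scarce. IGFBP6 (ENSG00000167779), which prefers IGF2, read 8.56 and 4.75 CPM in vehicle 12 h, 8.02 and 6.31 CPM in BaP 12 h, 11.1 and 9.19 CPM in vehicle 24 h, and 11.6 and 13.2 CPM in BaP 24 h. The 24 h libraries all exceeded the 12 h libraries, and vehicle and BaP overlapped at 12 h, where the log2 difference was 0.09 ± 0.25. It was 0.30 ± 0.25 at 24 h and 0.64 ± 0.25 between the vehicle times. The difference over time was 1.12, past the threshold used for all genes, without replicate 1 of vehicle 12 h and 0.25 without replicate 2, and for BaP at 12 h the same omissions gave 0.58 and -0.30. IGFBP2 (ENSG00000115457), another fetal binding protein, lay between 4.16 and 8.25 CPM in all 8 libraries, and its log2 differences were -0.33 ± 0.28, 0.06 ± 0.31 and -0.00 ± 0.29 for BaP at 12 h, BaP at 24 h and vehicle over time. Its highest value came from the shallowest library. For IGFBP5 a count of 0 allows up to 3 counts, which is 0.201 to 1.13 CPM depending on the library, counting error only.

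**Figure D1:**
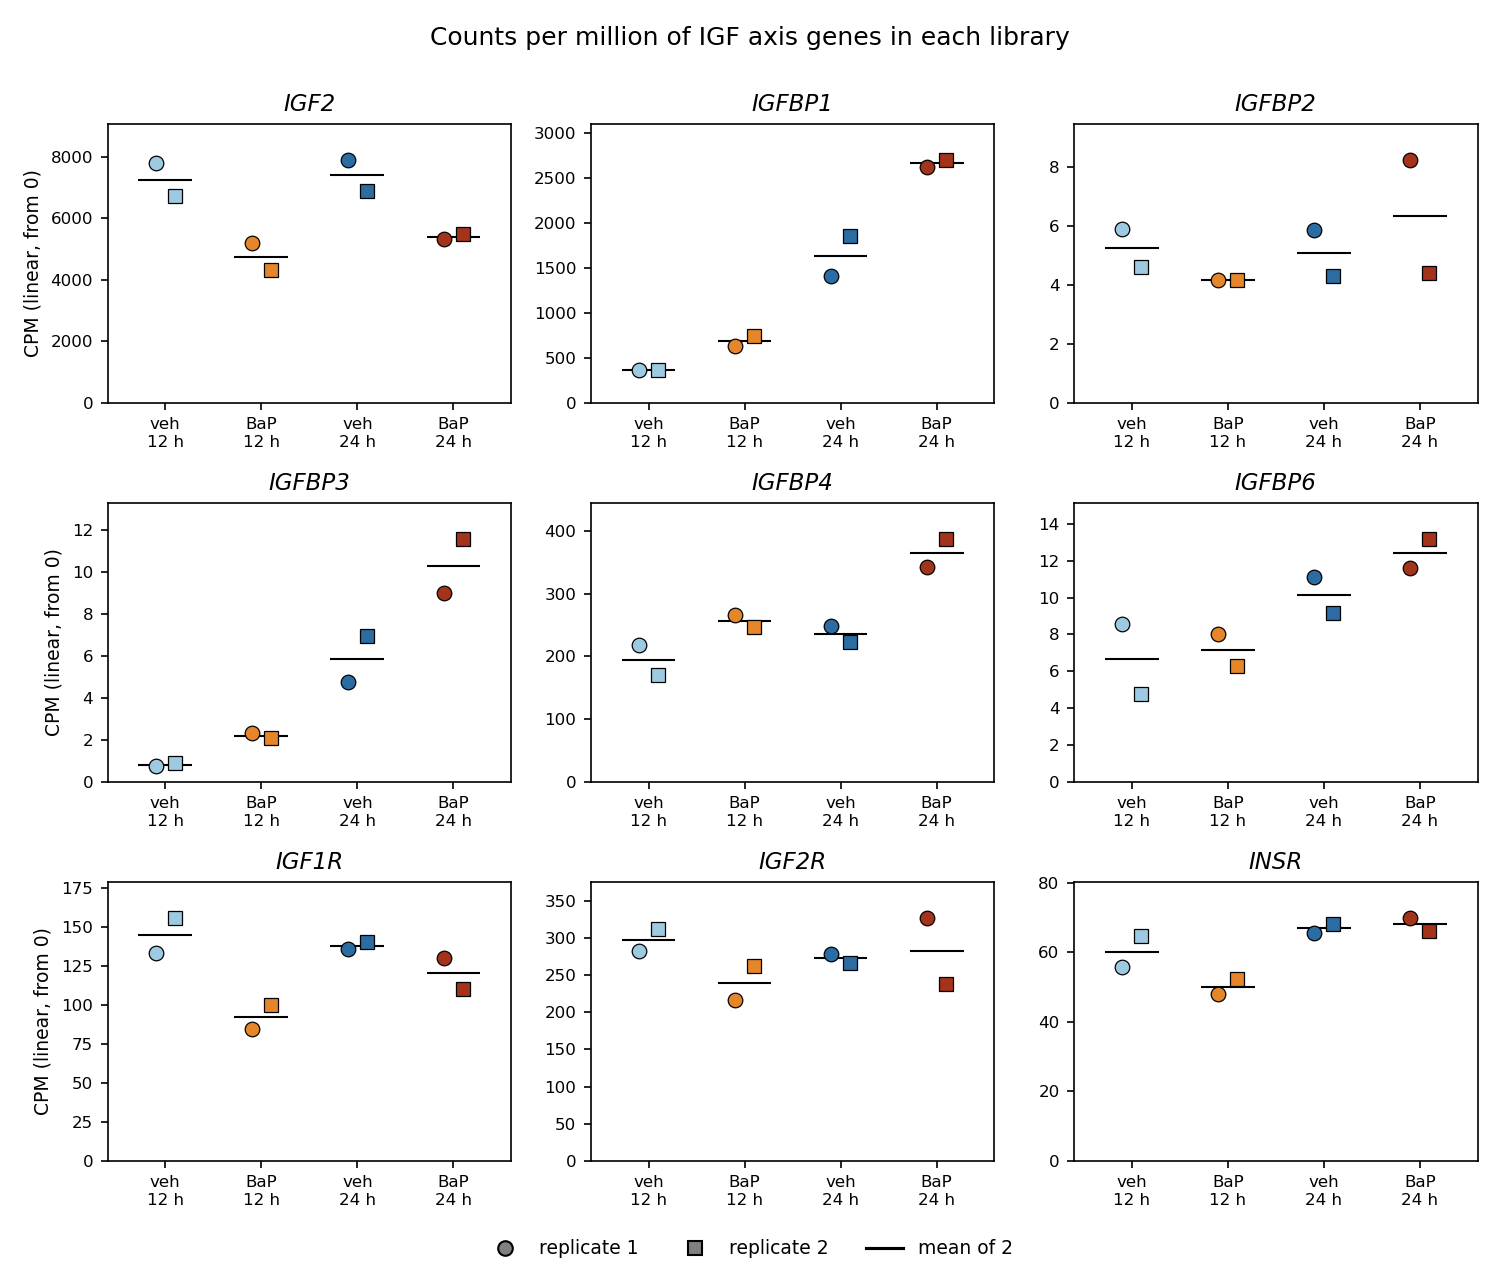
CPM (linear axes from 0) of the 9 IGF axis genes that passed the filter, in each library. Circles and squares are replicates 1 and 2 and lines are means of 2. IGFBP1 and IGFBP3 are higher in each group than in the one to its left, and all 4 BaP libraries of IGF2 lie below its vehicle libraries.

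Among the receptors, IGF1R (ENSG00000140443) differed most. It read 134 and 156 CPM in vehicle 12 h and 84.9 and 100.1 CPM in BaP 12 h, against 136 and 140 CPM in vehicle 24 h and 131 and 110 CPM in BaP 24 h. BaP libraries lay below vehicle libraries at both times, with log2 differences of -0.64 ± 0.13 at 12 h and -0.21 ± 0.13 at 24 h, and vehicle over time gave -0.07 ± 0.13. The 24 h value was -0.33 without replicate 1 of BaP 24 h and -0.08 without replicate 2. IGF2R (ENSG00000197081) held 283 and 312 CPM in vehicle 12 h and 216 and 262 CPM in BaP 12 h, a log2 difference of -0.31 ± 0.15. At 24 h its BaP libraries, 327 and 238 CPM, lay on both sides of the vehicle libraries, 279 and 267 CPM (0.04 ± 0.15).

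INSR (ENSG00000171105) held 55.6 and 64.7 CPM in vehicle 12 h and 47.9 and 52.2 CPM in BaP 12 h, a log2 difference of -0.26 ± 0.12. The groups at 24 h overlapped, with 65.5 and 68.1 CPM for vehicle and 69.8 and 66.2 CPM for BaP (0.02 ± 0.12). All 3 receptors were thus lower in both BaP libraries than in both vehicle libraries at 12 h, and of the 3 only IGF1R was so at 24 h.

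The receptors are also the long genes of the set. IGF1R spans 316 kb, INSR 182 kb and IGF2R 144 kb in GENCODE 29, and no other member exceeds 31.6 kb. Over all genes tested with a known span, the 2301 above 100 kb had a median log2 difference of -0.17 with BaP at 12 h and -0.12 at 24 h, where the 11224 shorter ones had 0.05 and 0.03. At 12 h the log2 difference was -0.64 for IGF1R, -0.31 for IGF2R and -0.26 for INSR. The spread of the long genes around their median was not examined. The part of gene length in the receptors' values was not tested.

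**Figure D2:**
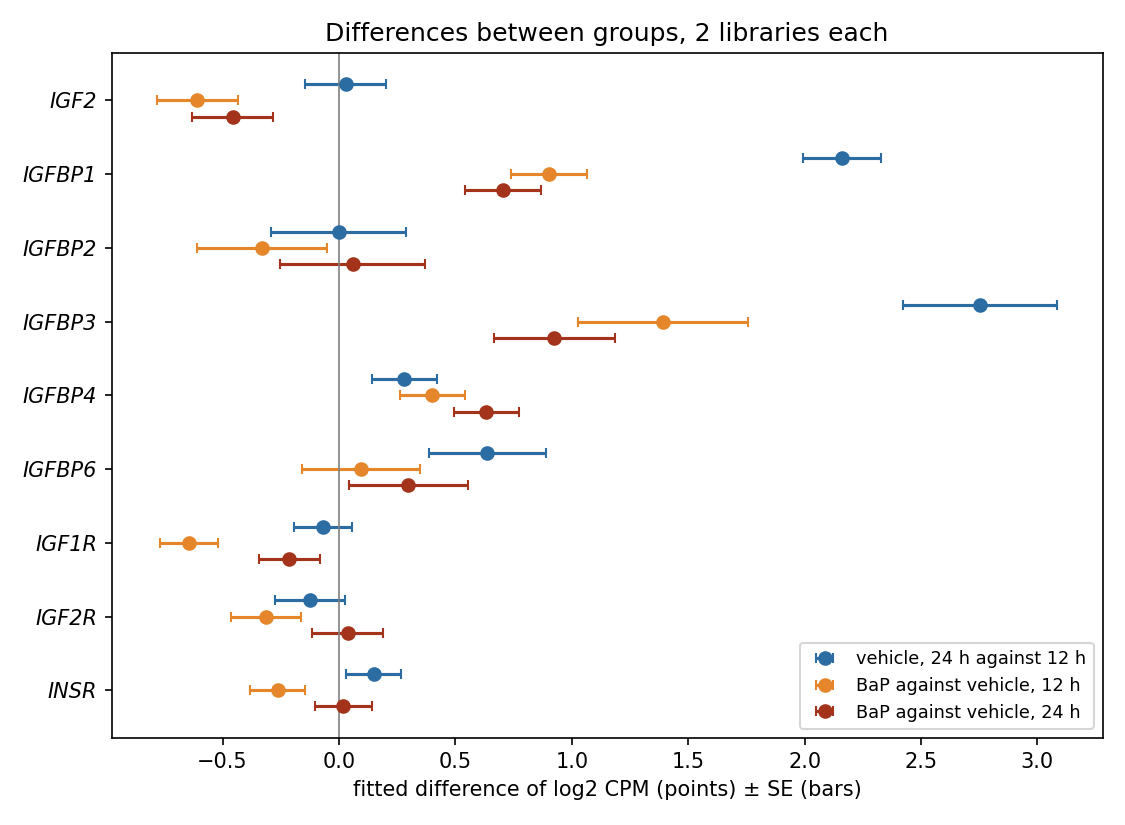
Fitted differences of log2 CPM with their SE for 3 comparisons, 2 libraries per group. Points right of 0 are higher at 24 h (vehicle) or with BaP, and the largest are the vehicle time differences of IGFBP3 (2.76) and IGFBP1 (2.16).

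Counted over the 9 genes, BaP at 12 h put 4 past an adjusted p of 0.05 in edgeR's quasi-likelihood test: IGFBP1 and IGFBP3 higher, IGF2 and IGF1R lower. Of all genes tested 8.25% passed there, 3.41% higher and 4.84% lower. At 24 h IGFBP1, IGFBP3 and IGFBP4 passed, all higher, where 5.30% of all genes did (3.11% higher, 2.20% lower). Between the vehicle times IGFBP1 and IGFBP3 passed, both higher, where 3.28% did (2.27% higher, 1.01% lower). Groups did not overlap for 8 of the 9 genes at 12 h (background 49.3%), for 6 at 24 h (47.2%) and for 6 between the vehicle times (48.6%). The members' median log2 difference was -0.26 for BaP at 12 h, 0.06 for BaP at 24 h and 0.15 between the vehicle times, beside medians of 0.02, 0.01 and 0.01 over all genes. Since these comparisons were in view when the genes were chosen, nothing is read from the counts.

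Whether a member lay past the threshold often rested on single libraries. Without replicate 2 of BaP 12 h the IGFBP1 difference at 12 h (0.77) missed the threshold, and so did IGFBP1 at 24 h (0.52) without replicate 1 of vehicle 24 h. At 12 h IGF2 and IGFBP3 missed it when any 1 of the 4 libraries of that comparison was left out, and IGF1R missed it without replicate 1 of BaP 12 h (-0.53). At 24 h IGFBP3 and IGFBP4 missed the threshold without either vehicle library or replicate 2 of BaP. With only the 4 libraries of the 24 h comparison in the fit, IGFBP1 (0.71), IGFBP3 (0.95) and IGFBP4 (0.63) all missed it. Each of these differences kept its sign.

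Levels of different genes were compared per length, as transcripts of a gene per 1000000 transcripts (TPM), made from the authors' RSEM fractions. In vehicle 12 h the order was IGF2 (1705 ± 179, SD, n = 2), IGFBP1 (266 ± 10.0), IGFBP4 (105 ± 20.9), IGF2R (39.8 ± 3.67), IGF1R (20.6 ± 0.560), IGFBP6 (8.91 ± 3.87), INSR (7.53 ± 0.672), IGFBP2 (4.94 ± 0.636) and IGFBP3 (0.468 ± 0.02), with only IGFBP6 and INSR overlapping among neighbours. The first 4 places were the same in BaP 12 h and vehicle 24 h. In BaP 24 h IGFBP1 (1802 ± 282) stood above IGF2 (1178 ± 160) with no overlap between their libraries. Further down that group, IGFBP6 overlapped IGF1R, INSR overlapped IGFBP2 and IGFBP2 overlapped IGFBP3, so that their order there is not settled.

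The ratio of IGFBP1 to IGF2 transcripts brings both genes together within each library. It was 0.149 and 0.164 in vehicle 12 h, 0.376 and 0.539 in BaP 12 h, 0.575 and 0.807 in vehicle 24 h, and 1.55 and 1.51 in BaP 24 h. IGF2 transcripts outnumbered IGFBP1 transcripts in 6 libraries, and the reverse held in the 2 libraries of BaP 24 h. The summed transcripts of the 6 binding proteins went, on the same scale, from 385 ± 35.5 in vehicle 12 h to 668 ± 58.4 in BaP 12 h, 1283 ± 149 in vehicle 24 h and 2011 ± 306 in BaP 24 h (SD, n = 2). IGFBP1 made up 69.3%, 76.5%, 88.7% and 89.6% of that sum in the same groups. Among the receptors, IGF1R transcripts per INSR transcript were 2.75 ± 0.171, 2.22 ± 0.130, 2.19 ± 0.0677 and 1.85 ± 0.248. The ratios come from the comparisons that chose the genes and carry no test.

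**Figure D3:**
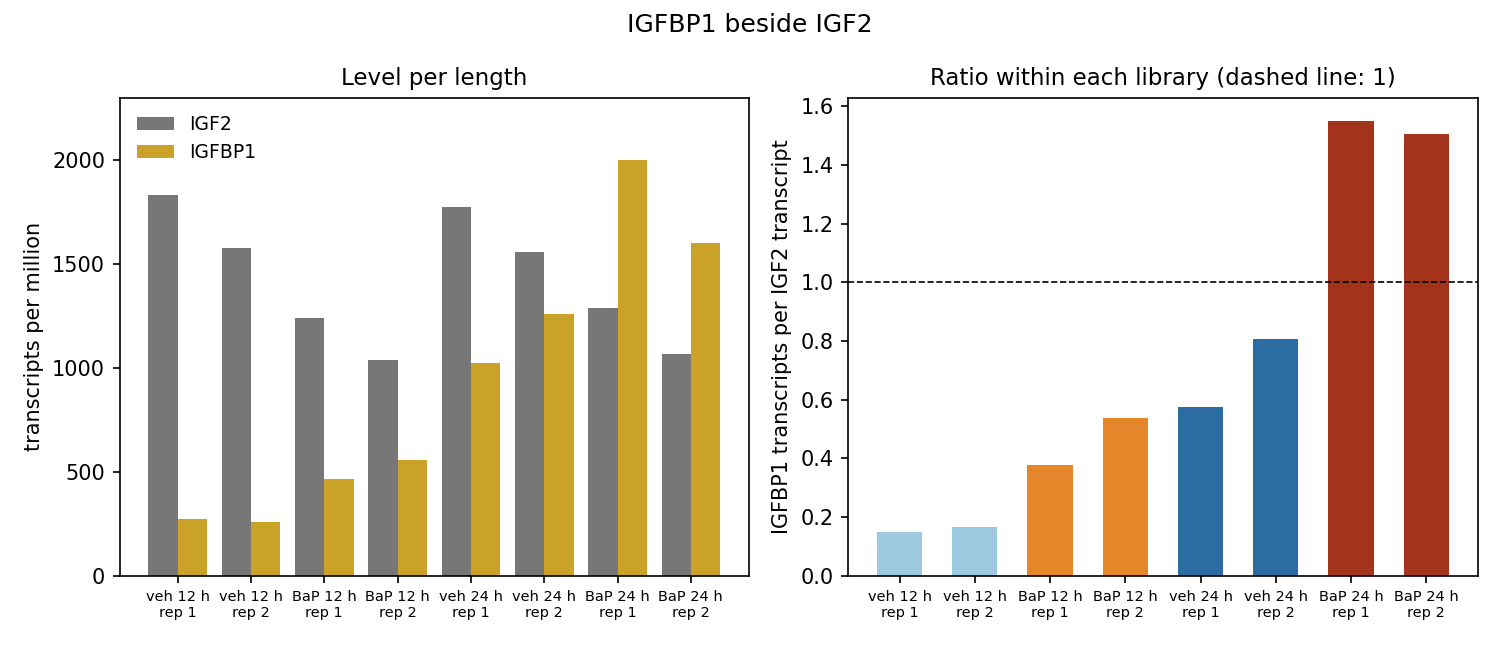
TPM of IGF2 and IGFBP1 in each library (left) and IGFBP1 transcripts per IGF2 transcript (right), both axes from 0. The ratio is below 1 in 6 libraries and is 1.55 and 1.51 in the 2 libraries of BaP 24 h.

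The division of a gene's reads among its transcripts did not enter the choice of genes, so it was tested. Of the 10 genes, 5 had at least 2 transcripts with 10% or more of the gene's counts (IGF2, IGF1R, INSR, IGFBP2 and IGFBP3). By edgeR's gene-level F-test of transcript usage, 0 of the 5 passed for BaP at 12 h, BaP at 24 h, vehicle over time or the difference between the BaP responses. The share of all 6831 genes that passed was 0.307%, 0.922%, 0.307% and 0.761%. None of the 5 reached an unadjusted p under 0.05 (0 genes, lowest 0.0761, 0.263, 0.112 and 0.115), and the Simes test also called 0.

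IGF2 was divided among 3 transcripts that end at the same 3′ position and differ in their first exon and start. ENST00000416167, starting farthest upstream of the 3, took 39.8% to 60.1% of the counts, ENST00000381406 26.7% to 35.2% and ENST00000381395 5.61% to 23.8%. The 2 replicates of vehicle 12 h were 39.8% and 58.5% for the first, nearly the whole range of the 8 libraries. A shift of that size with BaP could not be told from the spread between replicates.

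For INSR, the share assigned to the transcript with exon 11 was 18.9% and 12.6% in vehicle 12 h, 0% and 18.2% in BaP 12 h, 0% and 62.1% in vehicle 24 h, and 41.1% and 0% in BaP 24 h. Replicates of 1 group differed as much as the libraries altogether. The rest went to the transcript that skips the exon printed above, the isoform that binds IGF2 well. In GENCODE 29 the 2 models also differ in length outside that exon, 4721 against 8954 bases. The reads were divided on models of Ensembl release 58, whose lengths were not examined. How far the division rests on reads over the 36 bases was therefore not settled. IGF1R was divided between ENST00000268035, with 64.8% to 80.6%, and ENST00000427922. IGFBP3, with its few reads, had transcripts whose share ran from 0% to 100% between libraries.

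**Figure D4:**
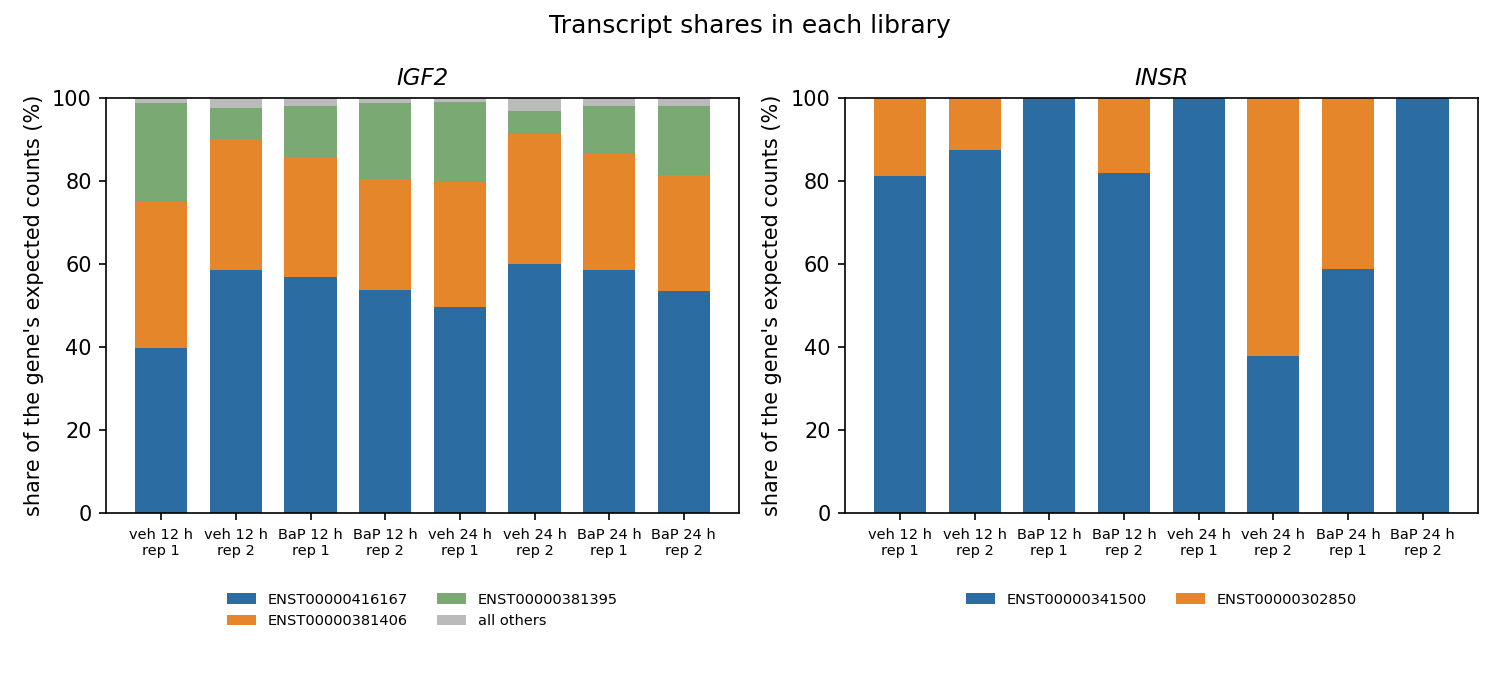
Share of the estimated counts of IGF2 (left) and INSR (right) assigned to each transcript, in percent, with 1 bar per library. The INSR transcript with exon 11, ENST00000302850, ranges from 0% to 62.1%, and replicates of a group differ widely.

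Other genes of the pathway were followed through 5 lists of 99 genes, none of them a member, of which 96 matched an ID and 81 passed the filter. The lists were drawn up with earlier results of these data known and are described by counts and medians. With BaP at 12 h, 4 list genes rose and 7 fell (13.6% of 81, against 8.25% of all genes). At 24 h 4 rose and 4 fell (9.88% against 5.30%), and in vehicle over time 8 rose and 1 fell (11.1% against 3.28%). Without replicate 1 of BaP 12 h 6 list genes passed at 12 h, and without replicate 1 or 2 of vehicle 24 h 2 passed at 24 h. Between the vehicle times 5, 4 and 2 passed without replicate 1 of vehicle 12 h, replicate 1 of vehicle 24 h and replicate 2 of vehicle 24 h. The medians over the 81 were -0.06, -0.10 and 0.06, beside 0.02, 0.01 and 0.01 over all genes. Adjusted p values below are from edgeR's quasi-likelihood test over all 14746 genes.

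Insulin and IGF signalling was the largest list, with 46 of the 81 genes tested. With BaP at 12 h, 4 of its genes were called higher and 3 lower (15.2%, against 8.25% of all genes). At 24 h 4 were called higher and 2 lower (13.0% against 5.30%). SOS1, the exchange factor that links receptor kinases to RAS, rose from 65.4 and 67.3 CPM to 241 and 233 CPM at 12 h (log2 difference 1.84 ± 0.14, adjusted p = 1.96e-07) and by 1.07 ± 0.14 at 24 h (adjusted p = 2.89e-04). RPTOR, the scaffold of mTOR complex 1, fell at 12 h from 130 and 122 CPM to 36.3 and 38.6 CPM (-1.75 ± 0.11, adjusted p = 4.22e-08). At 24 h RPTOR read 95.7 and 88.8 CPM with BaP against 108 and 108 CPM with vehicle, and it was the 1 list gene whose responses at the 2 times differed (1.51 ± 0.16, adjusted p = 1.19e-04), where 0.543% of all genes did.

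SESN2, a stress-induced inhibitor of mTOR complex 1, rose from 27.3 and 23.5 CPM to 54.3 and 48.7 CPM at 12 h (1.02 ± 0.15, adjusted p = 3.36e-04) and by 0.84 ± 0.17 at 24 h (adjusted p = 0.00948). PHLPP1, a phosphatase of AKT, fell at both times, by 0.68 and 0.54 on the log2 scale (adjusted p = 0.00133 and 0.0212). SHC1, a receptor adaptor, rose at 24 h by 0.63 ± 0.12 (adjusted p = 0.00528). The other calls of the list, given after their values were seen, were SESN1 (0.64) and SHC1 (0.45) higher and MTOR (-0.46) lower at 12 h, and SESN1 (0.63) higher and FOXO4 (-0.83) lower at 24 h. Of the genes called lower, RPTOR spans 422 kb, PHLPP1 265 kb, MTOR 156 kb and FOXO4 7.34 kb. Of those called higher, SOS1 spans 143 kb, SESN1 108 kb, SESN2 23.0 kb and SHC1 12.1 kb. The part of gene length was not tested.

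In the list of ligands, carriers and proteases, LRP1, a large endocytic receptor that binds IGFBP3, fell with BaP at 12 h (938 and 986 CPM to 571 and 653 CPM, -0.65 ± 0.14, adjusted p = 0.00819), and 0 of its 10 tested genes passed at 24 h, also at an unadjusted p under 0.05 and by DESeq2, which gave 1 of them no adjusted p. IGF1, the other ligand, was not kept, with 0 to 6.35 counts per library, and neither were the IGFBP4 protease PAPPA (1 to 11 counts) and IGFALS (1 to 25 counts), the third part of the serum IGF complex. Among regulators of IGF2 transcripts, CTCF, the insulator protein of the imprinted IGF2 locus, fell at 24 h (70.7 and 71.6 CPM to 49.9 and 53.9 CPM, -0.44 ± 0.12, adjusted p = 0.0410). H19, the imprinted neighbour of IGF2, held 0 to 11 counts per library and was not kept. The 10 genes of mannose 6-phosphate sorting, the pathway that uses IGF2R, gave 0 calls in every comparison by edgeR and by the DESeq2 Wald test, with 0, 1, 2 and 0 at an unadjusted p under 0.05 for BaP at 12 h, BaP at 24 h, vehicle over time and the difference between the responses.

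Transcripts that insulin regulates in hepatocytes fell with BaP where they passed, 3 of 9 tested at 12 h and 1 at 24 h. The glucose transporter SLC2A1 fell from 1373 and 1169 CPM to 566 and 598 CPM at 12 h (-1.13 ± 0.15, adjusted p = 1.23e-04), and SLC2A2, the liver glucose transporter, fell by 1.1 ± 0.20 (adjusted p = 0.00173). SREBF1, the insulin-driven regulator of fatty acid synthesis, fell at 12 h by 0.59 and at 24 h by 0.72 (adjusted p = 0.00307 and 0.00262). The list's median was -0.28 at 12 h and -0.30 at 24 h.

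In vehicle between 12 h and 24 h, where IGFBP1 and IGFBP3 were 4.47-fold and 6.75-fold higher, 4 of the 9 genes of that list rose. PPARGC1A, a coactivator of gluconeogenesis, went from 15.6 and 15.3 CPM to 30.7 and 41.4 CPM (1.20 ± 0.17, adjusted p = 9.72e-04). ANGPTL4, a fasting-induced lipase inhibitor, rose by 1.59 ± 0.22 (adjusted p = 7.71e-04), PCK1, the rate-setting enzyme of gluconeogenesis, by 1.45 ± 0.37 (adjusted p = 0.0399) and SLC2A1 by 0.58 ± 0.15 (adjusted p = 0.0423). PCK1 was scarce, with means of 1.48 CPM in vehicle 12 h and 3.94 CPM in vehicle 24 h. FOXO1, the factor that insulin signalling keeps out of the nucleus, rose from 35.5 and 40.7 CPM to 61.4 and 70.1 CPM (0.78 ± 0.13, adjusted p = 0.00295). ENPP1, an inhibitor of INSR, rose by 0.96 ± 0.17 (adjusted p = 0.00794), DDIT4, an inhibitor of mTOR complex 1, by 0.53 ± 0.12 (adjusted p = 0.0271) and STC2, an inhibitor of PAPPA proteases, by 0.46 ± 0.12 (adjusted p = 0.0440). FURIN, a protease that matures the precursors of IGF1R and INSR, fell by 0.63 ± 0.12 (adjusted p = 0.00681). Time in culture is the only labelled difference between these groups.

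**Figure D5:**
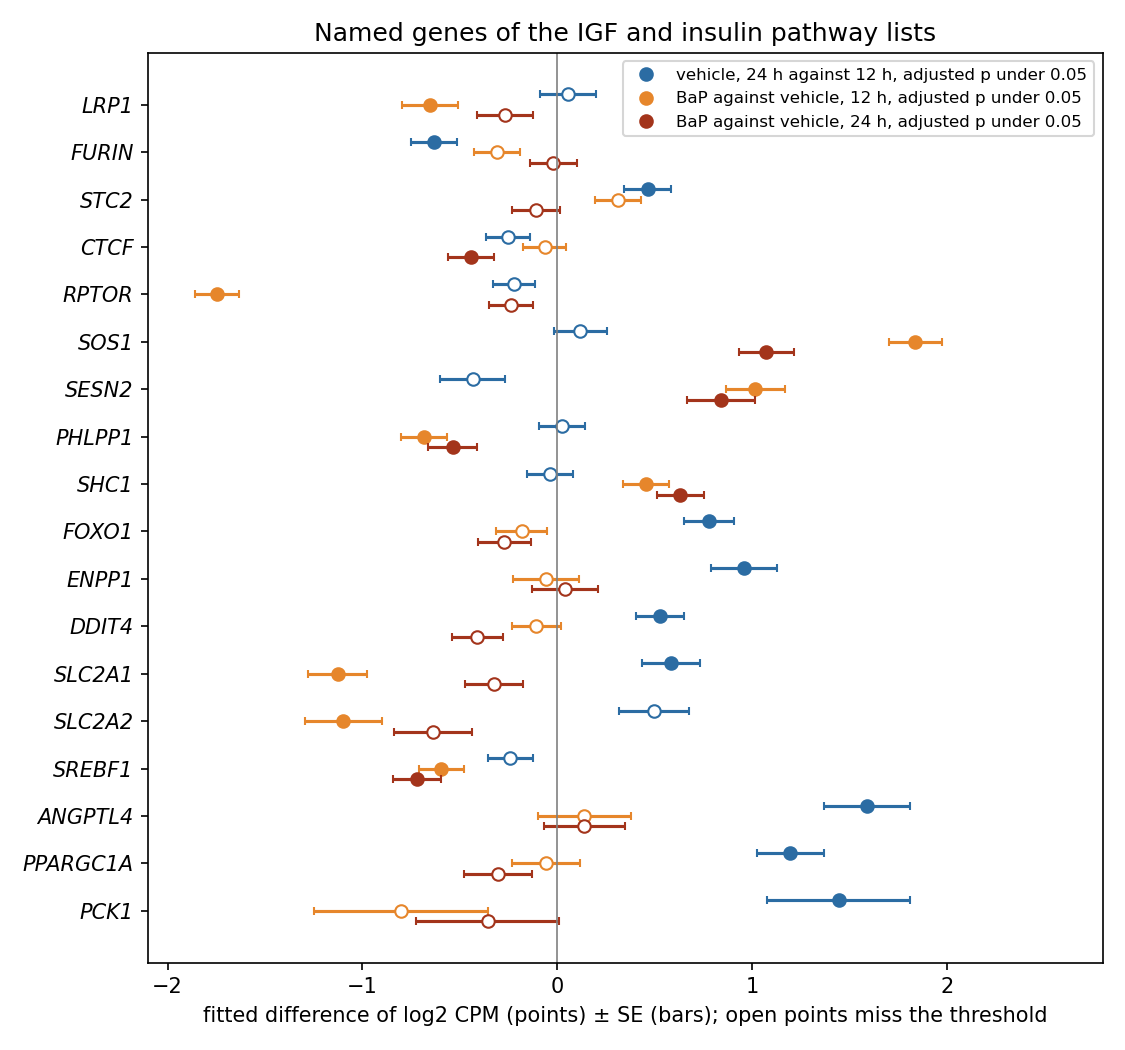
Fitted differences of log2 CPM with their SE for the 18 named pathway genes in 3 comparisons. Filled points passed an adjusted p of 0.05 and open points did not. SOS1 (1.84) and RPTOR (-1.75) are the extremes with BaP at 12 h, and ANGPTL4 (1.59) has the largest vehicle time difference shown.

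How firmly these calls stood varied. The 12 h calls of SOS1, RPTOR, SESN2, PHLPP1, SLC2A1 and SLC2A2, and those of SOS1 and SREBF1 at 24 h, were kept under all 11 alternatives tried. So were PPARGC1A and ANGPTL4 between the vehicle times (11 of 11 and 10 of 10). LRP1 kept its call in 8 of 11, missing it without replicate 2 of vehicle 12 h and without either BaP 12 h library, and SREBF1 at 12 h missed it without replicate 1 of BaP 12 h. At 24 h CTCF kept its call in 5 of 11, PHLPP1 in 6, SESN2 in 8 and SHC1 in 9. Each of these 4 missed the threshold without either vehicle 24 h library, and CTCF and PHLPP1 also without replicate 2 of BaP 24 h.

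Between the vehicle times STC2 kept its call in 5 of 11 alternatives, DDIT4 and SLC2A1 in 6, PCK1 in 6 of 9 and FURIN in 8 of 11. All 5 missed it without either vehicle 24 h library. STC2, DDIT4 and SLC2A1 did so without either vehicle 12 h library too, FURIN without replicate 1 of it and PCK1 without replicate 2. FOXO1 and ENPP1 missed it without replicate 2 of vehicle 24 h, and ENPP1 also without replicate 1 of vehicle 12 h. For the 18 genes that the naming rule took, the direction was kept under the alternatives tried. SESN1, MTOR and FOXO4, and SHC1 at 12 h, were not run under them.

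The genes whose pattern was most like IGFBP1 over the 8 libraries, by Pearson r of log2 CPM among 10042 genes above 5 CPM, were DDAH2 (r = 0.992), ICAM1 (0.991), TRIB1 (0.987), GSTA4 (0.984) and TRIM15 (0.982). ICAM1, an adhesion molecule, had group means of 91.5, 113, 168 and 188 CPM in the order vehicle 12 h, BaP 12 h, vehicle 24 h and BaP 24 h, a narrower range than IGFBP1. IGFBP3, at a mean below that limit, followed IGFBP1 with r = 0.99. For IGFBP6, the other member that the rule took (a range of 0.94 on the log2 scale, close to the 0.92 of IGFBP4), they were NBDY (0.978), OGDH (0.970), ZFTRAF1 (0.968), RGL2 (0.968) and IFITM3 (0.966). These correlations describe 8 libraries in 4 groups and carry no p.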

How the data were processed

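Each of the 8 libraries had a table per gene and a table per transcript. The authors aligned reads with Bowtie 0.12.7 and divided them among transcripts with RSEM 1.1.7, per the submitters' processing notes, which also name edgeR. The authors' deposited estimated counts, made by RSEM, are not normalized, and the annotation is Ensembl release 58. The build of the files was not given in the sources used here. The deposited fraction of each gene is the authors' estimate of its share of all transcript molecules, and was multiplied by 1000000 for levels per length (TPM). Posterior mean counts and fractions in the same deposited tables served as alternatives. Names matched 40763 of 49733 gene IDs (82.0%).

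Counts were rounded and analysed in R 4.3.3 with edgeR 4.0.16. filterByExpr (minimum count 10, total 15) kept 14746 genes, libraries were scaled by TMM, and a robust quasi-likelihood model with 1 mean per group was fitted to all 8. CPM use the scaled library sizes, and the SE is the log2 difference over the square root of F. Tests were two-sided, with p adjusted by Benjamini and Hochberg over all genes at a threshold of 0.05. Usage was tested with diffSpliceDGE on 17034 transcripts of 6831 genes. The methods were tested on simulated data. Alternatives were DESeq2 1.42.0 size factors and its Wald test, no filter, a replicate block, the libraries of a comparison alone, each library left out, thinning to 2592234 counts, posterior counts and, for usage, no minimum share and Simes.

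The members and lists were chosen with earlier results of these data known. From each list and comparison up to 4 genes with the smallest p among those that passed were named, and for 2 members the 5 most correlated genes. List genes without a matched ID (INS, KCNQ1OT1, TXNIP and the endothelial marker PECAM1) were not analysed here. Marker lists held 9 hepatocyte, 6 stromal, 4 endothelial and 5 leukocyte genes, and the summed level of the last 3 was 20.0 to 59.9, 0.375 to 3.19 and 38.4 to 61.6 CPM. Intervals and floors cover counting error only.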

Additional observations from a re-analysis of the deposited data

Results flagged for a closer look

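RPTOR, the scaffold subunit of mTOR complex 1, was the 1 gene of the pathway lists whose response to BaP differed between the times by a test of the difference itself. The log2 difference with BaP was higher by 1.51 at 24 h than at 12 h (SE 0.16, adjusted p = 1.19e-04 by edgeR's quasi-likelihood test over 14746 genes). Both BaP 12 h libraries (36.3 and 38.6 CPM) lay below the other 6 libraries (88.8 to 130 CPM). The estimate ranged from 1.46 to 1.63 over 14 alternatives and passed the threshold in each.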

How the results depend on the processing

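No direction was reversed among the 18 pathway genes that the naming rule took or the members past the threshold. Under the alternatives 280 member differences moved by less than the spread and 17 by more, and named pathway genes kept their call 219 times and lost it 45 times. For BaP at 12 h, 11 list genes passed, and 6 to 10 passed with 1 library left out, the lowest without replicate 1 of BaP 12 h. For BaP at 24 h, 8 passed, against 4 with only the libraries of the comparison, 3 with thinned counts and 2 to 12 with 1 library left out. The lowest came without either vehicle 24 h library, and 4 passed without replicate 2 of BaP 24 h. Between the vehicle times 9 passed, and 2 to 6 with 1 library left out, the lowest without replicate 2 of vehicle 24 h. For the difference between the responses 1 gene passed, 3 with no filter on low counts, 2 by the DESeq2 Wald test and 1 to 3 with 1 library left out, the highest without replicate 1 of BaP 24 h.

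With a replicate block, 11, 8, 8 and 1 list genes passed in these comparisons, SLC2A1 being lost between the vehicle times. The labels do not say that a number marks 1 experiment, and the replicates' deviations correlated between groups at -0.24 to 0.42 over 7299 genes, so the block stayed an alternative. IGFBP3 missed the threshold at 24 h with the block, and at 12 h and 24 h by the DESeq2 Wald test, which gave it no adjusted p between the vehicle times. Over 11 alternatives each, log2 differences with BaP at 12 h ran from 0.77 to 1.01 for IGFBP1 and 1.26 to 2.52 for IGFBP3. They ran from -0.75 to -0.49 for IGF2 and -0.78 to -0.53 for IGF1R. At 24 h they ran from 0.52 to 0.91 for IGFBP1, 0.62 to 1.16 for IGFBP3 and 0.53 to 0.71 for IGFBP4. Between the vehicle times they ran from 1.95 to 2.35 for IGFBP1 and 2.51 to 3.54 for IGFBP3. These comparisons chose the members, so the ranges carry no test.

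Usage calls of the members stayed at 0 under all alternatives. Posterior fractions gave other levels per length for 30 values and like ones for 10, such as 1260 for IGFBP1 and 828 for IGF2 in BaP 24 h, with IGFBP1 still the higher, and 1.66 in place of 0.468 for IGFBP3 in vehicle 12 h. Depth limits IGFBP5, at 0 or 1 count per library, and IGFBP3, at 10 to 173 counts.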
